A study of Caenorhabditis elegans with 2 samples.

Results

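The genes described here are the cuticle collagen genes of Caenorhabditis elegans that carry the name col followed by a number. In the WBcel235 annotation 156 of 19973 protein-coding genes had such a name, with 41 on chromosome IV, 31 on V, 27 on X, 24 on II, 21 on I and 12 on III. Membership was set by name alone, without any measured value, but the family was picked with earlier results of these data known. They were examined in chromatin immunoprecipitation with sequencing (ChIP-seq) of HLH-1, the MyoD-family muscle factor of the worm. The samples were whole embryos of mixed stages and of pooled sex from strain OP64 (unc-119(ed3) III; wgIs64), which carries an inserted transgene for an eGFP-hlh-1 fusion, and all samples share this genotype. The promoter that drives the transgene is not stated in the labels. The 2 biological replicates form 1 group with no other condition, so the question that could be asked was where the tagged factor was found. Each signal is an average over all cells of the embryo.

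Cuticle collagens are short secreted proteins whose Gly-X-Y repeats wind into triple helices. They are made by the epidermis (hypodermis), processed by prolyl hydroxylases and proteases, and crosslinked into the cuticle, which is built for the first time in the late embryo and replaced at each moult. HLH-1 acts in body wall muscle, which lies beneath the epidermis, and binds short DNA sites called E-boxes, written CANNTG. The collagens of the basement membrane between both tissues belong to another family, type IV, and are made largely by muscle.

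A gene was called bound when a peak had its summit in the window that begins 2000 bp before the gene start and ends 500 bp past it. The start is the most 5′ annotated base. The peaks were those of the authors' list past a threshold of reproducibility (irreproducible discovery rate, IDR), called the IDR list here. Which comparison the threshold rests on is not stated, and a peak of the list need not be found in each replicate. The IDR list held 3254 peaks with scores from 32.5 to 964.9 and a median of 55.7, and rank 1 is the highest score. The score is the authors' own value per peak and its scale is not stated, so it ranks and describes peaks within a list. By this rule 6 of 156 col genes were bound, or 3.85% (95% Wilson interval 1.77 to 8.14), against 2553 of 19973 protein-coding genes, or 12.8% (12.3 to 13.3). The other 150 col genes had no IDR summit in the window. The intervals cover the counting of genes only, and genes that share a peak are not independent. No p-value is given, since there is 1 group and genes are not replicates.

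The sequences at the strongest bound members are given because they show what DNA lay under the peaks. All are the plus strand of WBcel235. At col-94 and col-38 the 101 bp centred on the summit are shown (chrIII:10989621-10989721 and chrII:8569479-8569579). Capitals in the col-94 window mark the part inside the small nuclear RNA (snRNA) gene R07E5.16, and the col-38 window has no capitals because it holds no CANNTG. At col-8 30 bp around its E-box are shown (chrIII:7021425-7021454), with the CANNTG in capitals.
col-94: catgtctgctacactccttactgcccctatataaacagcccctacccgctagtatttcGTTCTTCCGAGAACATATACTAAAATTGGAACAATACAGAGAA
col-38: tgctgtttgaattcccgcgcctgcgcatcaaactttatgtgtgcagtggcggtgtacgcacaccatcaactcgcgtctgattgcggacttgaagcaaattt
col-8: cgtttagagacaCAGGTGagcagaacagta

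Of the 6 bound members col-94 had the strongest peak. Its summit (chromosome III, 10989671, peak 10989523 to 10989818) lay 1798 bp upstream of the start, with a score of 102.4 and rank 520. The gene, at 10986808 to 10987873 on the minus strand, lies with col-92 and col-93 inside dhc-4, a long gene of the opposite strand, and the summit was in a dhc-4 intron. The start of R07E5.16 was 8 bp from the summit, on the side away from col-94, so the capitals of the sequence above are the beginning of that gene. No protein-coding start lay nearer than that of col-94, but the distance was close to the edge of the window. The same summit lay 4062 bp upstream of col-93 and 6418 bp upstream of col-92, which were not bound. These 3 neighbours encode almost the same protein, with 99.7% identity between COL-92 and COL-94.

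The peak at col-38 (chromosome II, summit 8569529, peak 8569381 to 8569676) had a score of 49.8 and rank 1966. It lay 441 bp upstream of the start of col-38 (8568035 to 8569088, minus strand) and 398 bp from the start of rpl-5, a ribosomal protein gene that runs the other way. Between them lie 3 short non-coding RNA genes, F54C9.15, F54C9.16 and F54C9.17, and the summit was in exons of the last 2 of these. Their starts were 388 bp, 98 bp and 33 bp from the summit, so the start of col-38 was the fifth nearest of any gene.

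The peak at col-8 (chromosome III, summit 7021450, peak 7021302 to 7021597) had a score of 41.0 and rank 2502. It lay 850 bp upstream of col-8 (7019583 to 7020600, minus strand) but 244 bp inside rfl-1, which encodes the catalytic subunit of the NEDD8-activating enzyme and also runs the other way. The summit was in an rfl-1 intron. The E-box CAGGTG shown above began 13 bp before the summit and spans the end of the 5′ untranslated exon of rfl-1, so the printed stretch is part exon and part intron. The replicate 2 summit, at 7021436, was in that exon.

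The peak at col-55 (chromosome I, summit 6198618, peak 6198470 to 6198765) was the only one of the 6 whose nearest start of any gene was the collagen itself. It lay in intergenic DNA, 1055 bp upstream of col-55 (6199673 to 6200193, plus strand), with a score of 39.2 and rank 2631. CAGGTG began 38 bp before the summit. This member also encodes the shortest protein of the family, with 154 amino acids.

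The last 2 bound members had peaks at the very end of the list. At col-54 (chromosome I, 5842709 to 5844050, plus strand) the summit at 5843089 was 380 bp downstream of the start, in an intron, with a score of 33.1 and rank 3179. The same base lies in an annotated transfer RNA (tRNA) gene, WBGene00023024, and in the non-coding RNA gene F33D11.15, whose starts were 66 bp and 15 bp away. At col-63 (chromosome I, 8243694 to 8244963, minus strand) the summit at 8245644 was 681 bp upstream, with a score of 32.5 and rank 3254, the lowest of the list. It lay in an untranslated exon of ceh-8, a homeobox gene, and 22 bp from the start of the non-coding RNA gene ZK265.11. The −log10 q-value given by the authors was 2.96 for the col-54 peak and 2.77 for the col-63 peak, against 3.32 for the other 4.

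**Figure D1:**
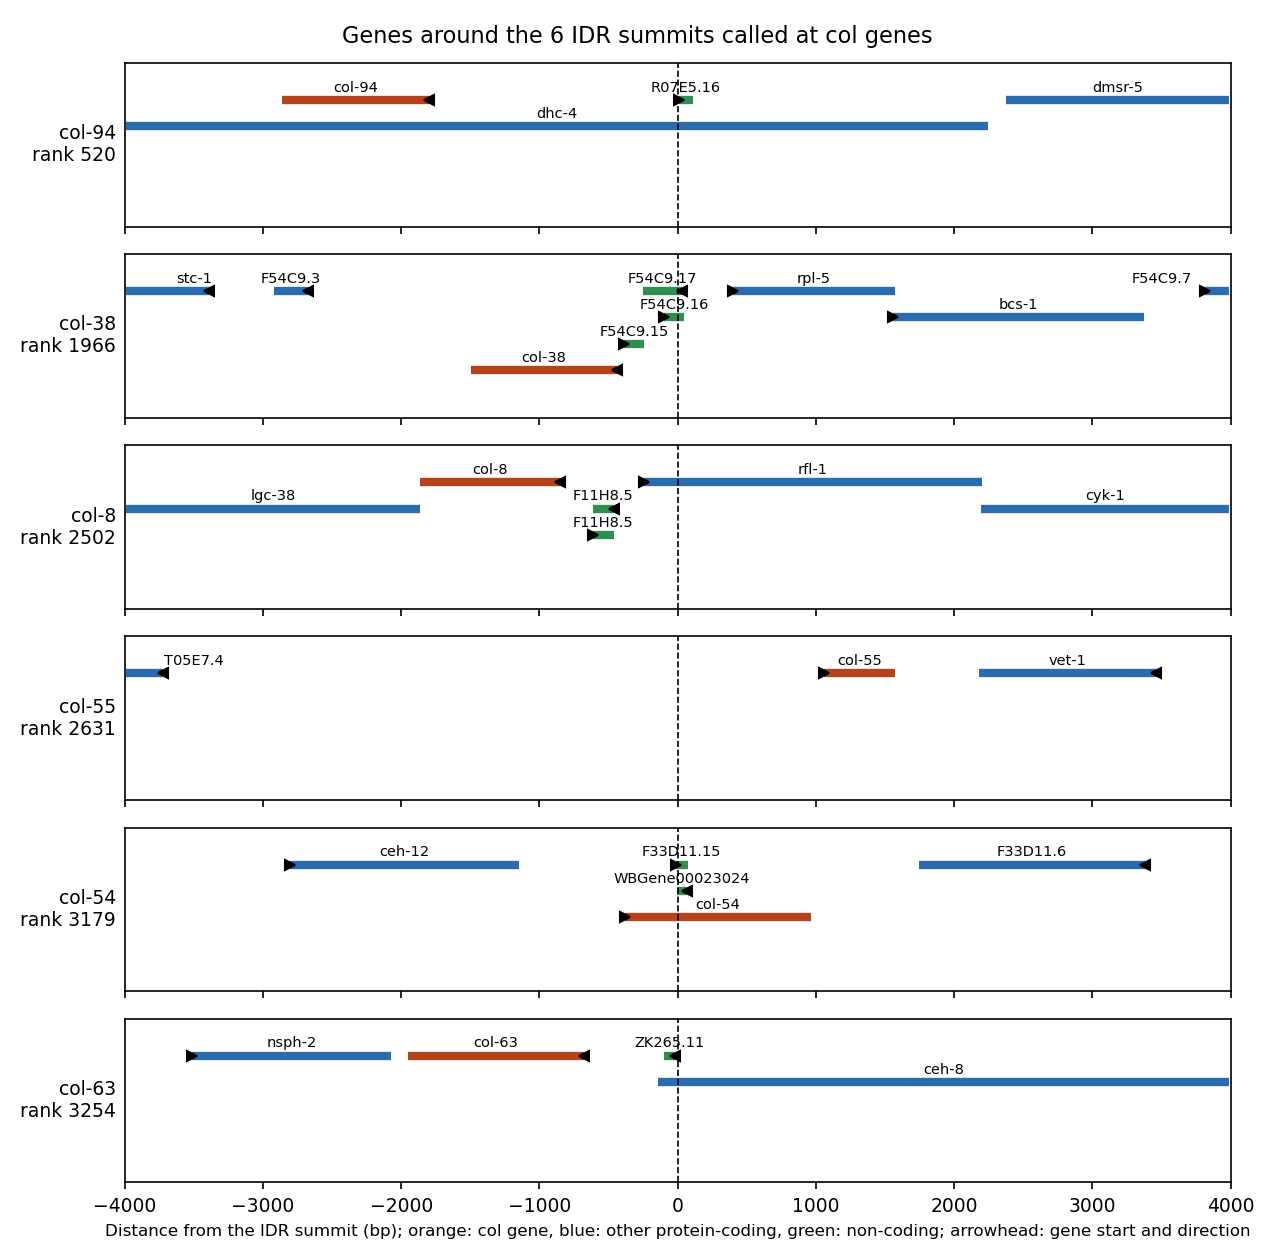
Annotated genes within 4000 bp of the 6 IDR summits called at col genes, strongest at the top. The dashed line is the summit, the horizontal axis is distance in bp, bars are genes (orange, col gene; blue, other protein-coding; green, non-coding; piRNA genes are not drawn) and arrowheads mark starts and direction. In 5 of the 6 panels a start of another gene is nearer to the summit than that of the col gene, and in the col-55 panel none is.

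How many of these peaks went to the collagen by distance depended on whether non-coding genes were counted. Counted for the nearest protein-coding start only, 4 col genes kept their call (col-54, col-55, col-63 and col-94), or 2.56%, against 8.83% of all protein-coding genes. Counted for the nearest start of any gene, non-coding ones included, 1 did (col-55), or 0.641%, against 6.91%. As shares of the bound genes these are 66.7% of the col genes against 69.1% of all genes for protein-coding starts, and 16.7% against 54.1% for starts of any kind. The start of the nearest other gene was 8, 33, 244, 15 and 22 bp from the summit at col-94, col-38, col-8, col-54 and col-63. Which gene a peak acts on was not tested.

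The distance to the start also set the count. Within 500 bp on either side, 2 col genes (col-38 and col-54) were bound, or 1.28%, against 7.42% of all protein-coding genes. Within 250 bp on either side no col gene had an IDR summit (0 of 156, Wilson interval up to 2.40%), against 944 of 19973, or 4.73%. Out to 5000 bp upstream 16 were bound, or 10.3%, against 19.7%. The 10 added by the longer window were col-64, col-93, col-99, col-105, col-109, col-111, col-120, col-129, col-132 and col-164. Over the gene body with 2000 bp upstream 8 were bound (5.13%, against 15.1%), with col-72 and col-99 added. COL-99 is a transmembrane collagen with a role in axon guidance, so this member carries the name but is not known as a part of the cuticle.

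**Figure D2:**
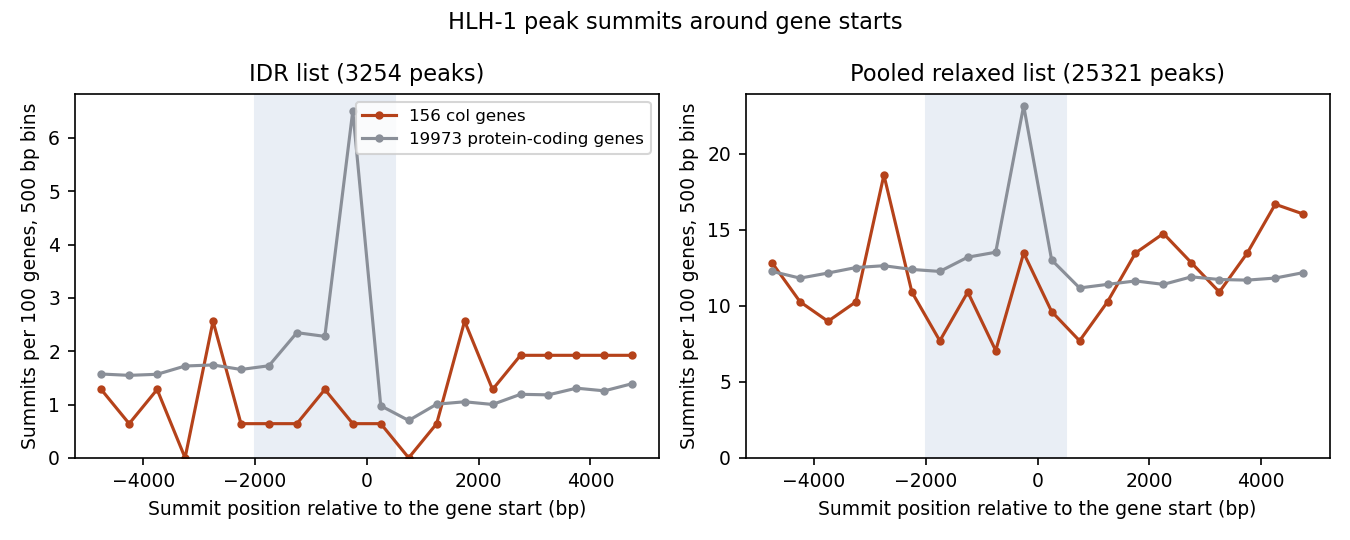
Summits per 100 genes in 500 bp bins around the gene start, for the 156 col genes (orange) and all 19973 protein-coding genes (grey), in the IDR list (left) and the pooled relaxed list (right). The shaded band is the window of the call, and negative positions are upstream. The sharp rise of the grey line just upstream of the start (6.51 in the IDR list, 23.1 in the relaxed list) stands beside 0.641 and 13.5 for the col genes.

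The profile of summits around the starts had its peak just upstream for genes at large. In the 500 bp before the start there were 0.641 IDR summits per 100 col genes, which is 1 summit, and 6.51 per 100 protein-coding genes. Upstream of that bin the col genes were mostly lower as well, except from 3000 to 2500 bp upstream, with 2.56 against 1.74. Downstream the order changed. From 1500 to 5000 bp past the start the col genes were the higher in each bin, with 1.28 to 2.56 against 1.00 to 1.39, which rests on 2 to 4 summits per bin at col genes. The nearest IDR summit, in either direction, was a median of 16776 bp from a col start (quartiles 6302 to 34507 bp) and 13491 bp from any protein-coding start (4744 to 30212 bp). Within 10000 bp 36.5% of col genes and 41.5% of all genes had an IDR summit, and within 20000 bp 53.8% and 62.2%.

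At the edges of the window, col-94 (1798 bp upstream) and col-54 (380 bp downstream) were the members just inside. The members just outside were col-120, with a summit 2282 bp upstream, and col-181, with a summit 1319 bp downstream. The 5 unbound col genes with the nearest summits were col-181 (1319 bp, score 66.0), col-35 (1508 bp, 64.8), col-119 (1608 bp, 56.7), col-176 (1766 bp, 85.1) and col-102 (1863 bp, 71.5). All 5 of these summits were downstream of the collagen start. Each had a higher score than any bound member other than col-94.

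The replicates ranked the same loci differently. The relaxed list of replicate 1 held 28959 peaks with scores up to 165.7 and that of replicate 2 held 30000 with scores up to 806.3, so ranks and not scores are compared between them. The peak overlapping the col-94 IDR peak ranked 1617 in replicate 1 (score 8.86) and 438 in replicate 2 (97.7). The replicate 1 peak (10989674 to 10990043) had its summit 188 bp from the IDR summit and did not reach it. The peak at col-38 ranked 1107 (10.3) in replicate 1 and 2404 (37.9) in replicate 2. These were the 2 bound members whose peak was among the top 3254 of both replicates, as many peaks as the IDR list holds.

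At the other 4 the replicates did not rank the peak alike. The peak at col-54 ranked 14035 in replicate 1 (score 3.77) and 3096 in replicate 2 (30.5). The peak at col-63 ranked 7487 (4.99) and 3230 (29.4). At col-8 the overlapping peak was among the last of replicate 1, at rank 28934 (2.31), and ranked 2608 in replicate 2 (35.4). The best replicate 1 peak of the col-8 window lay elsewhere, 75 bp downstream of the start (rank 4446, score 6.03). At col-55 replicate 1 had no peak over the summit, while replicate 2 ranked it 2474 (37.0). Of the bound genes, 2 of 6 col genes (33.3%) and 1201 of 2553 protein-coding genes (47%) rested on an IDR peak found in the top lists of both replicates.

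The top 3254 peaks of replicate 2 alone called 6 col genes, and these were the 6 of the IDR list; among all protein-coding genes 12.8% were called this way. The top 3254 peaks of replicate 1 alone also called 6 col genes, but only col-38 and col-94 were in both sets (33.3% of each); among all protein-coding genes 10.1% were called this way. For all genes the replicate 1 calls shared 1329 with the IDR calls, which is 66% of the replicate 1 calls and 52.1% of the IDR calls. For replicate 2 the shared number was 2398 (93.5% and 93.9%). All 6 bound collagens were thus in the top list of replicate 2, and 2 of them in that of replicate 1.

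**Figure D3:**
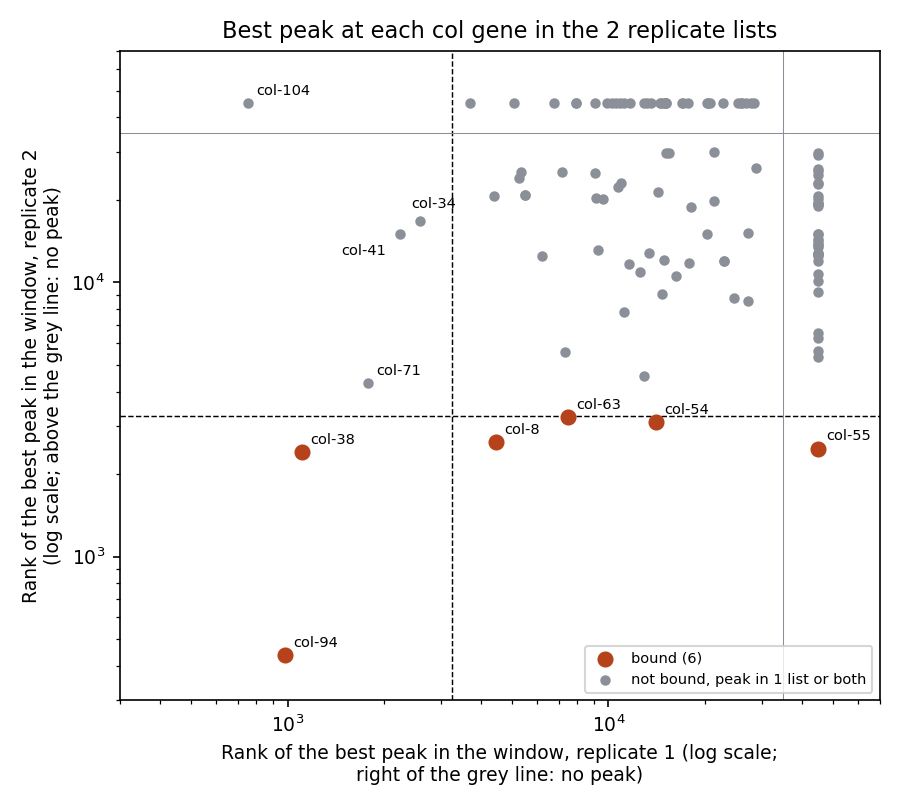
Rank of the highest peak with its summit in the window of each col gene in replicate 1 (horizontal) and replicate 2 (vertical), on log scales. Points beyond the grey lines have no peak in that replicate, col genes with none in either are not drawn, and dashed lines mark rank 3254. All 6 bound genes (orange) lie below the horizontal dashed line, but only col-38 and col-94 lie left of the vertical one. For col-8 and col-94 the replicate 1 point is another peak of the window than the one that overlaps the IDR peak.

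The 4 col genes called by replicate 1 alone were col-34, col-41, col-71 and col-104. The highest was col-104, where a summit on chromosome IV at 1355489 lay 184 bp upstream with rank 755 and a score of 12.3. Replicate 2 had no peak there, and the start of the annotated pseudogene WBGene00023304 was 3 bp from the summit. At col-34 (chromosome IV, summit 4245112, 502 bp upstream, rank 2585, score 7.39) neither replicate 2 nor the pooled list had an overlapping peak. This summit was intergenic and nearest to col-34 itself. The 101 bp around it (chrIV:4245062-4245162, plus strand) are shown because they are the replicate 1 window of these 4 that holds an E-box, CAGTTG, in capitals.
col-34: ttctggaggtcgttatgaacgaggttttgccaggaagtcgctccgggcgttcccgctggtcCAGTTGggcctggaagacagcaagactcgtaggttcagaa

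At col-41 (chromosome X, summit 15176307) the replicate 1 peak was 174 bp downstream of the start in a coding exon, with rank 2240 (score 7.80), against rank 15000 (8.51) in replicate 2. At col-71 (chromosome II, summit 3503105) it lay 535 bp upstream, with rank 1776 (8.48), against rank 4290 (22.3) in replicate 2. The start of Y49F6B.2 was 137 bp from that summit, which was in an intron of that gene. No start of another gene was nearer than the collagen start at col-34 and col-41.

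The relaxed lists hold peaks together with background, so a summit there is not a call past the authors' threshold. In the pooled relaxed list, with 25321 peaks, 62 of 156 col genes had a summit in the window, or 39.7%, against 51.5% of all protein-coding genes. In replicate 1 79 col genes had one (50.6%, against 56.2%) and in replicate 2 77 did (49.4%, against 55.7%). Both replicates had one at 44 col genes (28.2%, against 37.5%), and neither did at 44 (28.2%, against 25.6%). In none of the 3 lists was there a summit for 41 col genes (26.3%, against 24%). Where the pooled list had a peak, the best one at col genes had a median rank of 12757.5 and a median score of 11.9, against 8288.5 and 15.4 for all genes. The peaks of the bound col genes had the same scores and ranks in the pooled list as in the IDR list. These ran from rank 520 at col-94 to rank 3254 at col-63.

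The unbound members with the highest pooled relaxed peaks were col-2, col-85, col-166, col-72 and col-71. The summit at col-2 was 425 bp upstream with a score of 31.2 and rank 3402, just past the end of the IDR list. The only replicate 1 summit in the col-2 window lay elsewhere, 161 bp downstream (rank 6760), and replicate 2 had none. At col-85 the pooled summit was 351 bp downstream (score 28.0, rank 3847). Replicate 1 had no summit in the col-85 window, and the only one of replicate 2 was 1072 bp upstream (rank 20733). The pooled summit at col-166 was 1314 bp upstream (22.6, rank 4864). At col-72 it was 472 bp downstream (21.9, rank 5065), and at col-71 247 bp upstream (20.1, rank 5636).

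**Figure D4:**
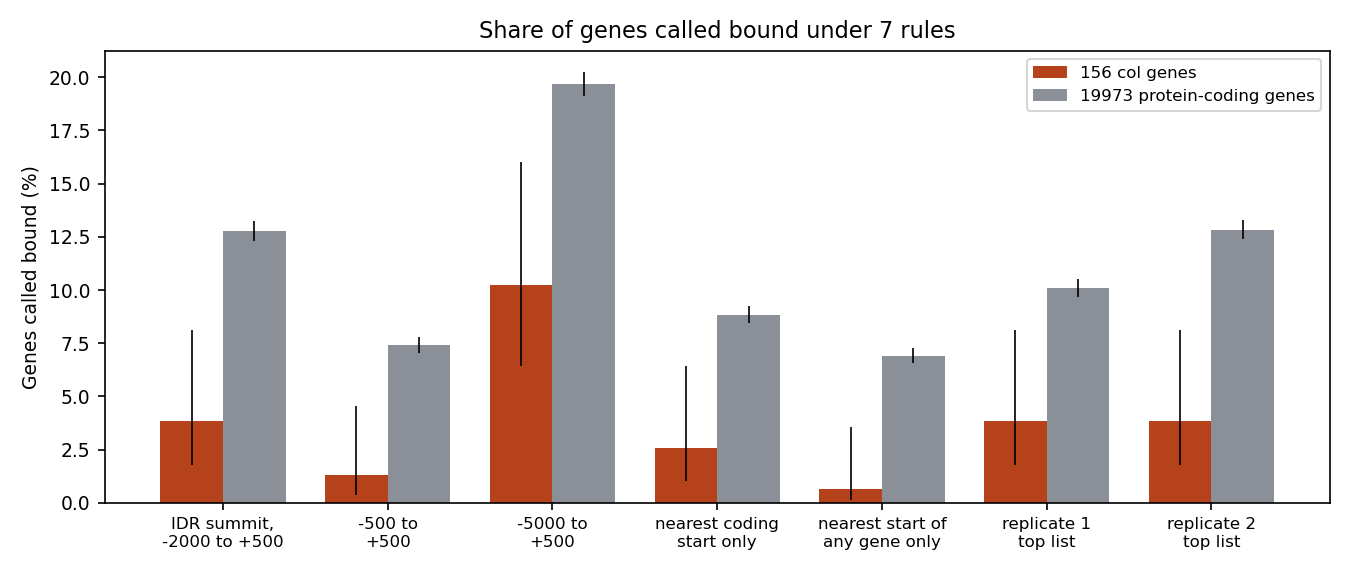
Share of the 156 col genes (orange) and of all 19973 protein-coding genes (grey) called bound under 7 rules, with 95% Wilson intervals as vertical lines. The rules are the IDR list with its window and 2 other windows in bp, the same list counted for the nearest start only, and the top 3254 peaks of each replicate. The col bar is the lower of the pair under each rule, from 0.641% to 10.3%, beside 6.91% to 19.7%.

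By chromosome the bound col genes were 3 of 21 on I (14.3%, against 15.9% of all genes there), 2 of 12 on III (16.7%, against 17.7%) and 1 of 24 on II (4.17%, against 12.7%). On IV, V and X none of 41, 31 and 27 was bound, against 12.1%, 7.29% and 15.7% of all genes there. The Wilson interval of these 0 counts reached 8.57% on IV and at most 12.5% on V and X. Chromosome V also had the lowest share of col genes with a pooled relaxed summit, 16.1%, against 40.4% of all its genes. On chromosome I that share was 61.9%, against 60.2%.

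The counts were also split by the space upstream of a gene, although the window was not cut at the next gene. The gap to the next protein-coding gene upstream had a median of 855.5 bp for col genes and 936 bp for all. With a gap under 500 bp 1 of 57 col genes was bound (1.75%, against 13%), and with 500 to under 2000 bp 4 of 64 (6.25%, against 13.2%). With 2000 to under 5000 bp the count was 1 of 23 (4.35%, against 12.8%), and with 5000 bp or more 0 of 12 (interval up to 24.2%, against 11.2%). Col genes were also shorter, with a median of 1220 bp, against 2027 bp.

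Reads from repeated DNA are hard to place, and several col genes have near-identical copies. The share of the window made of 31-base words found more than once in the genome had a median of 2.10% at col genes and 0.280% at all protein-coding genes. It was 20% or more at 14 col genes (8.97%), against 10% of all protein-coding genes. None of these 14 was bound, against 4.64% of the 2005 such genes in all. With a share under 20%, 6 of 142 col genes (4.23%) and 13.7% of protein-coding genes were bound. The col-94 window had a share of 15.2% and the col-54 window 15.1%, while those of col-8, col-38, col-55 and col-63 were at 2.92% or less. How reads that match several places were treated is not given in the sources, and its part in these counts was not tested.

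As proteins the members were alike in build. The annotated coding sequences gave 154 to 740 amino acids with a median of 304, and 143 of the 156 proteins had 250 to 400. Gly-X-Y repeats, counted in runs of 3 or more triplets, made up a median of 51.0% of the residues, and 40% or more in 143 proteins. COL-135 had the highest share, 90% of 660 residues. COL-163, the longest, had 22.3%, and COL-17 had no such run in 277 residues as its coding sequence is annotated. Of the bound members COL-8, COL-38, COL-54 and COL-94 had 281 to 304 residues with 52.3% to 55.5% in repeats, COL-63 had 381 with 42.5%, and COL-55 had 154 with 39.0%.

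**Figure D5:**
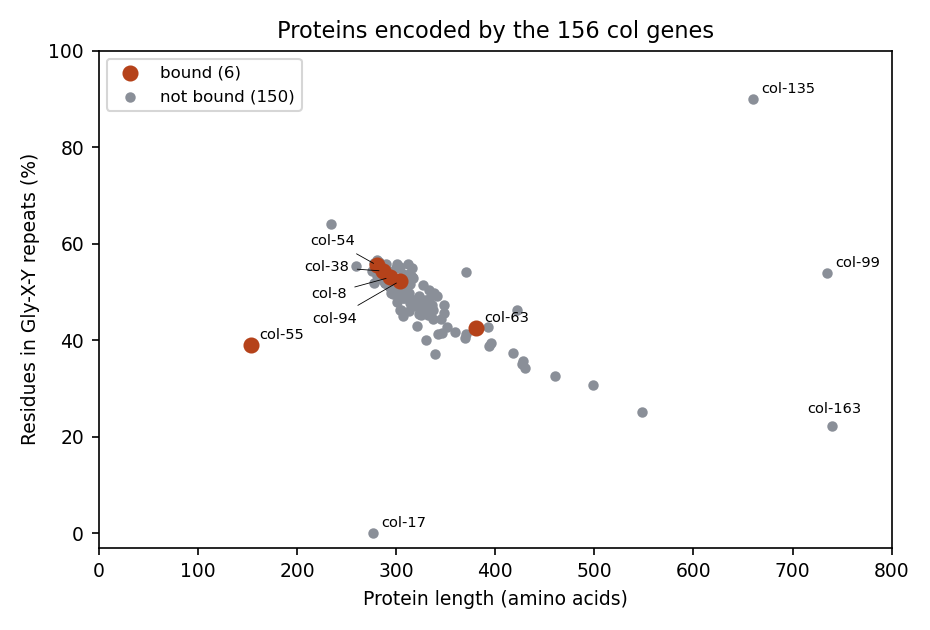
Length in amino acids and percent of residues in Gly-X-Y repeats for the proteins of the 156 col genes, with the 6 bound ones in orange and the 150 others in grey. Most proteins form 1 cluster near 304 residues and 51.0%, with a tail of longer proteins that have lower shares, to which the bound COL-63 belongs. COL-55, the shortest, is the bound protein outside the cluster and its tail, and COL-17, COL-99, COL-135 and COL-163 are labelled at the edges of the plot.

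The closest relative of a member within the family shared a median of 58.2% of residues, with a range of 19.7% to 100%. At 95% or more there were 27 col genes with such a relative, and col-94 alone of these was bound. Over all col genes 3.85% were bound, and over all protein-coding genes 12.8%. Of the 27, 11 had a pooled relaxed summit (40.7%), against 39.7% of col genes and 51.5% of protein-coding genes. The pairs col-126 with col-127 and col-3 with col-117 encode identical proteins, and none of these 4 genes was bound. COL-12 and COL-13 were 99.4% identical and also unbound. COL-8 was most like COL-19, a collagen of the adult cuticle, with 70.1% identity, and col-19 was not bound.

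E-boxes were searched on both strands from 250 bp before to 50 bp after each start. Any of CAGCTG, its relative CAACTG and the further form CACCTG was found at 38 of 156 col genes, or 24.4%, against 25% of all protein-coding genes. CAGCTG alone was at 3 col genes (1.92%, against 5.55%), CAACTG at 21 (13.5%, against 13.4%) and CACCTG at 14 (8.97%, against 8.48%). The members with CAGCTG were col-53, col-105 and col-139, and none was bound. For col-105 and col-139 the E-box with 30 bp on each side is shown, with CAGCTG in capitals, as examples of collagen promoters with this E-box and no IDR summit (plus strand, chrIV:1359395-1359460 and chrV:4653973-4654038).
col-105: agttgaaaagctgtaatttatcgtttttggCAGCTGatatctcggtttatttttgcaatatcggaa
col-139: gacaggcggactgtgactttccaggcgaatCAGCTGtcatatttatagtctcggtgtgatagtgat

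The CAGCTG at col-105 was 203 bp upstream of the start. The only pooled relaxed summit in the col-105 window was 36 bp downstream, with a score of 9.89 and rank 17377. At col-139 the E-box was 35 bp upstream, and the pooled list had no summit in the window. In the 101 bp around IDR summits at large, any of the 3 E-boxes was found in 38.8% and any CANNTG in 63.4%. Of the 6 bound col summits 2 held a CANNTG, and in col-8 and col-55 it was CAGGTG, which reads CACCTG on the other strand. No CANNTG in a window says only that these letters are not there.

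A pair of other short motifs was counted in the same windows. GATAAG, a form bound by GATA factors such as the epidermal ELT-1 and ELT-3, was in 36 col promoters (23.1%, against 16.7%), and TATAAA in 103 (66%, against 37.9%). Among 21 cuticle collagens with other names, such as bli-1 and dpy-10, GATAAG was in 13 promoters (61.9%) and TATAAA in 15 (71.4%). A match is a description of the letters and not a site.

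Other genes of the cuticle, of the epidermis and of collagen making in general were counted by the same rule, against the same 12.8% of all protein-coding genes. Of 21 cuticle collagens with other names 1 was bound (4.76%, interval 0.846 to 22.7), bli-6, whose mutants have a blistered cuticle. Its summit was 245 bp upstream, with a score of 32.9 and rank 3216. The peak ranked 18424 in replicate 1 and 3859 in replicate 2, outside the top 3254 of each. Unbound members included bli-1, bli-2 and dpy-10. Of 13 regulators of the epidermis and of moulting 1 was bound (7.69%, interval 1.37 to 33.3). This was the heterochronic gene lin-14 (900 bp upstream, score 41.3, rank 2481). The only replicate 1 summit in the lin-14 window lay elsewhere, 1727 bp upstream (rank 1227). The best one of replicate 2 was 940 bp upstream (rank 2341). With IDR peaks in the top lists of both replicates, 0 of 13 regulators were bound (interval up to 22.8%, against 6.01%). The regulators bed-3, blmp-1 and elt-1, the last a GATA factor of epidermal fate, were not bound.

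Of 14 genes listed for the making, modifying or crosslinking of collagen 3 were bound (21.4%, interval 7.57 to 47.6). All 3 had scores above that of any col gene. The summit at let-268, which encodes a lysyl hydroxylase of type IV collagen, was 23 bp upstream (score 249.8, rank 37). That at tsp-15, for a tetraspanin that works with the dual oxidase BLI-3, was 1300 bp upstream (162.1, rank 167). That at phy-2, for a prolyl hydroxylase subunit, was 110 bp upstream (114.1, rank 407). Each ranked in the top 3254 of both replicates, at 38 and 44 for let-268, 111 and 180 for tsp-15, and 855 and 458 for phy-2. The genes bli-3, bli-4 and bli-5 of the same list were not bound.

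The collagens of the basement membrane were counted beside them. The type IV genes emb-9 (1894 bp upstream, score 240.4, rank 43) and let-2 (115 bp upstream, 81.7, rank 823) were bound, and cle-1, for a collagen of the XV/XVIII type, was not, with its nearest summit 4366 bp upstream. The share was 66.7% (interval 20.8 to 93.9), against 12.8% of all protein-coding genes. Another IDR summit of emb-9 lay nearer to its start, 557 bp upstream (score 43.0, rank 2371). Within 500 bp of the start let-2 alone of these 3 was bound (33.3%, against 7.42%). Counted for the nearest start of any gene, non-coding ones included, 0 of the 3 were bound (interval up to 56.1%, against 6.91%). The body wall muscle genes myo-3, unc-15 and unc-54 were all bound (interval 43.9 to 100, against 12.8%), with best scores of 95.5, 58.5 and 84.7. They were picked with earlier results of these data known, so their calls are not an independent check of the labelled factor. The median best score of the 6 bound col genes was 40.1, against 55.0 for the 2553 bound protein-coding genes, and their median best rank was 2566.5, against 1668.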

How the data were processed

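HLH-1 ChIP-seq peak lists on ce11 (WBcel235) of 2 replicates, of the pooled reads and past the IDR threshold were used. The score and the −log10 q-value of each peak are the authors' deposited values. Per the labels, the fragments were 150 to 350 bp long and a control library exists, which was not analysed here. Not given in the sources used here are the aligner, the peak caller, the IDR threshold and the read depth. The precision of a score is therefore unknown. Lists on ce10 were not used. Replicates differ by label only in their biological replicate number.

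Genes came from Ensembl release 115 and sequences from the RefSeq genome of the same assembly. No peak lies past a chromosome end. Summits were assigned with Python 3.11.15, pandas 2.3.3 and numpy 2.4.6, and the window code was checked on simulated summits. Peaks overlapped if they shared 1 bp. Intervals are Wilson intervals (scipy 1.17.1). Proteins were translated from the longest annotated coding sequence and aligned globally (Biopython 1.88, BLOSUM62) where the shorter had 60% or more of the longer length. Of 56 symbols in 5 lists of other genes 54 matched. The names ram-4 and elt-5 did not.

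Named are each bound col gene, the 5 unbound ones nearest to a summit, the 5 with the highest pooled relaxed peak, bound genes of the other lists with up to 3 unbound ones in alphabetical order, and the genes nearest to each summit. Members known from textbooks, those called by 1 replicate, those a count of few refers to and those at the extremes of the protein measures are named as well, the last 3 kinds chosen after their values were seen. The members and lists were chosen with earlier results of these data known. Alternatives were other windows, nearest starts, gene bodies, higher scores, peaks in both replicates, each replicate alone, the relaxed list, peak intervals and other transcript starts.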

Additional observations from a re-analysis of the deposited data

How the results depend on the processing

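With the main rule 6 col genes and 2553 protein-coding genes were bound. The counts were 2 and 1481 within 500 bp of the start, 16 and 3930 out to 5000 bp upstream, 1 and 1381 for the nearest start of any gene, 1 and 1244 in the higher-scoring part of the IDR list, 2 and 1201 for IDR peaks in the top lists of both replicates, and 62 and 10284 in the pooled relaxed list. Under each of these the col share (0.641% to 39.7%) was below that of all genes (6.01% to 51.5%). Gene bodies, the nearest protein-coding start, peak intervals and other transcript starts kept both counts within 1.5 times. Leaving out either replicate gave 6 col genes, and 2014 to 2565 of all genes, but without replicate 2 the col set was another one. Of the 21 other named cuticle collagens, 1 was bound with the main rule (4.76%, against 12.8% of all protein-coding genes). The count was 0 in the higher-scoring part of the list and 0 in both top lists, against 6.23% and 6.01%. With either replicate left out it was 0, against 10.1% to 12.8%. In the relaxed list it was 6 (28.6%, against 51.5%). Of the 14 genes listed for collagen making 3 were bound with the main rule (21.4%, against 12.8%). Out to 5000 bp 5 were bound (35.7%, against 19.7%), and over gene bodies 5 (35.7%, against 15.1%). The count was 12 in the relaxed list (85.7%, against 51.5%). With either replicate left out it was 3 to 4 (21.4% to 28.6%, against 10.1% to 12.8%). The 62 col genes with a pooled relaxed summit became 34 within 500 bp (21.8%, against 32.2%). With the higher-scoring part of that list they became 31 (19.9%, against 33.6%). In either replicate's own list they became 77 to 79 (49.4% to 50.6%, against 55.7% to 56.2%). The 38 col promoters with an E-box became 3 for CAGCTG alone (1.92%, against 5.55%). In the 500 bp before the start they became 51 (32.7%, against 35.9%). No paired analysis was possible because all samples belong to 1 group. The cause of these differences was not tested. Depth is unknown, so an unbound gene is one with no peak past the threshold, not one shown to lack binding.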
